A study of Panicum virgatum with 54 samples.

Results

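A set of 169 leaf genes of switchgrass (Panicum virgatum) had nearly no reads in 2 libraries of leaves sampled before any stress, and was readily counted in the other 7 libraries of that time. The members were chosen by their read counts scaled to the library's total (CPM, the usual unit of scaled counts). Each had at most 0.2 CPM in both drought 0 h replicate 1 and combined 0 h replicate 2, and at least 3 CPM in each of the other 7 libraries at 0 h. Of the 32190 genes in the table, 21987 had at least 3 CPM in each of those 7 libraries, and the 169 members were 0.769% of these and 0.525% of all genes. Low values at 0 h chose the members, so they are given as a description with no test. A count near 0 does not show whether transcription stopped, and in bulk leaf RNA fewer cells that express a gene and less RNA per cell cannot be told apart.

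Switchgrass is a perennial C4 grass. Its lowland cultivars are polyploid, with chromosomes named for a K and an N subgenome, so that many genes have a related copy on the partner chromosome. Plants of a genotype are multiplied as ramets, pieces of the same plant that carry the same nuclear genome.

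The study profiled leaf RNA by stranded mRNA sequencing in 54 libraries, 3 in each of 18 groups (3 treatments at 0, 72, 96, 120, 144 and 168 h). All plants were ramets of AP13, a genotype of the lowland cultivar Alamo, sampled at the stage labelled E3. Combined plants received drought with heat added after 72 h and stood in a growth chamber of their own, so that chamber and heat go together. Drought plants received drought alone, and control plants were untreated, and these shared the other chamber. At 0 h all 9 libraries come before the stress, and at 72 h combined plants had drought without heat. Nothing in the labels tells whether replicates are different plants or whether equal replicate numbers mark one plant, so p-values reflect only how far these libraries spread, which may be technical. The deposited table names genes by identifier only, so the function of the members is not given, and values of near-identical K and N copies or of overlapping genes are uncertain where the counting could split their reads.

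The members were of modest abundance. Their mean over the 7 libraries ran from 4.03 to 72.4 CPM, with a median of 9.03 CPM, against a median of 17.7 CPM over the 21987 genes with at least 3 CPM in each of the 7. The limit of 0.2 CPM corresponds to 3.83 to 12.3 reads, depending on the library, and library totals ran from 19.2 to 61.6 M (M for mega). In drought 0 h replicate 1 the 169 members held 388 reads together, and in combined 0 h replicate 2 they held 263. The 7 other libraries of that time held 45828 to 94375. There were 13 members with 0 reads in both of the low libraries.

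Pavir.6KG119800.v4.1 on chromosome 6K had the highest mean, 72.4 ± 58.1 CPM (SD, n = 7 libraries). It stood at 0.0833 CPM in combined 0 h replicate 2 and 0.0650 CPM in drought 0 h replicate 1. In the other combined libraries of that time it had 21.4 and 13.1 CPM, in the other drought libraries 76.4 and 52.8 CPM, and in the controls 189, 85.5 and 69.0 CPM. The 7 libraries thus differed widely among themselves, yet all lay far above the 2 low ones. Pavir.3KG106100.v4.1 on 3K was next, and much more even. It had 0.167 CPM in combined 0 h replicate 2 and 0.0650 CPM in drought 0 h replicate 1, against 54.4 and 65.9 CPM in the other combined libraries, 49.96 and 49.02 CPM in the other drought libraries and 38.7, 63.5 and 61.8 CPM in the controls.

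The limits of the rule fell within a run of similar genes. The members closest to 3 CPM were Pavir.7KG353000.v4.1, with 3.01 CPM in its lowest of the 7 libraries, and Pavir.J635400.v4.1, with 3.04 CPM. Just outside lay Pavir.7NG412700.v4.1 at 2.9994 CPM and Pavir.7NG148600.v4.1 at 2.98 CPM. At the other limit, Pavir.1KG231900.v4.1 and Pavir.1NG070100.v4.1 reached 0.195 CPM in the low libraries, and Pavir.7KG331200.v4.1 and Pavir.5KG125800.v4.1, at 0.222 CPM each, were left out.

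Near absence formed the low end of the distribution, with a thin tail of genes joining it to the rest. For each of the 21987 genes, the mean of the 2 low libraries was divided by the mean of the other 7. The ratio lay between 0.8 and 1.25 for 11754 genes (53.5%). It was below 0.01 for 170 genes, of which 152 were members, between 0.01 and 0.02 for 37 (14 members) and between 0.02 and 0.05 for 46 (3 members). There were 50 genes, 0 of them members, between 0.05 and 0.1, after which the counts climbed to 116 genes between 0.1 and 0.2 and 1274 between 0.2 and 0.5. These ranges are of unequal width, and the limits of the rule hold every member at the low end, so the member counts are a description. The opposite pattern was counted over all genes of the table, since the 21987 leave out genes low in the 7. There were 0 genes with at least 3 CPM in both low libraries and at most 0.2 CPM in the 7, and 8 genes when at most 1 CPM was allowed in the 7, against 284 genes that met these looser limits in the direction of the members.

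**Figure D1:**
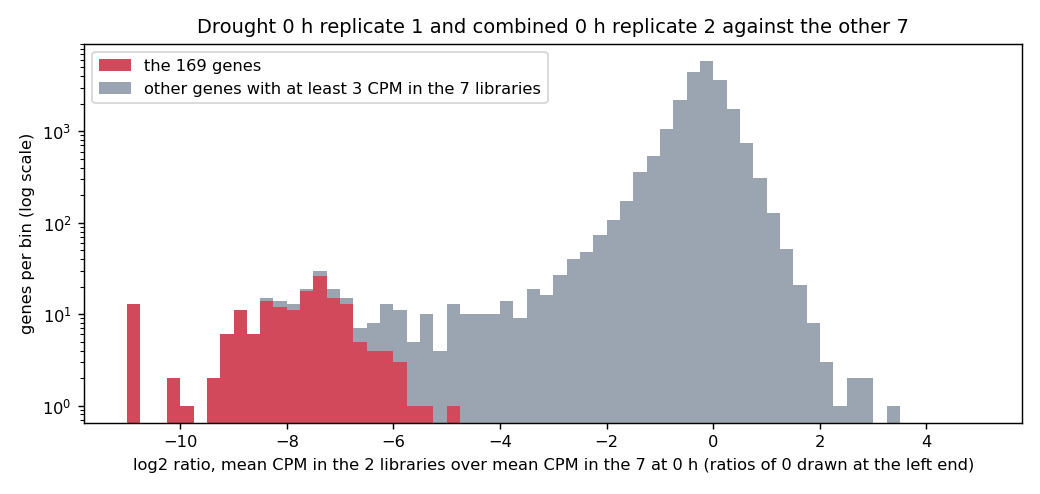
Number of genes (log axis) by the log2 ratio of the mean CPM in the 2 low libraries at 0 h to the mean CPM in the other 7, for the 21987 genes with at least 3 CPM in each of the 7, with the 169 members in their own colour. Members make up most of a small hump at the left (152 of the 170 genes with a ratio below 0.01, 13 with 0 reads in both libraries drawn at the left end), and the main peak is near 0. The rule itself holds the members at the left. Genes low in the 7 libraries are not drawn, so the right side cannot show the opposite pattern.

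The set was then followed through all 54 libraries. The level of the set in a library is the median over the 169 members of the CPM divided by the member's mean in the 7 libraries, in percent. In 12 libraries this level was 0.241% to 0.979%, and in the other 42 it was 31.9% to 131%. No library lay between 0.979% and 31.9%. The 12 low libraries were the 2 that chose the members and 10 later ones, which the rule did not use. The same 169 members held 224 to 819 reads together in a low library, against 18613 to 109106 in each of the other 42. Library totals were 22.4 to 44.1 M in the 12 low libraries and 19.2 to 61.6 M in the others. For the remaining 21818 genes, the median ratio to the 7 libraries was 0.817 to 1.15 in the 12 libraries and 0.764 to 1.18 in the 42.

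The low libraries were 8 of 18 combined, 4 of 18 drought and 0 of 18 control libraries. Combined replicate 2 was low at every time, with levels of 0.305%, 0.246%, 0.241%, 0.251%, 0.249% and 0.353% from 0 to 168 h. Combined replicate 1 was at 69.6%, 33.0%, 88.7% and 102% at 0, 72, 96 and 120 h, and at 0.979% and 0.644% at 144 and 168 h. Combined replicate 3 was never low and lay between 89.6% and 128%. Drought replicate 1 was low at 0 h (0.605%), 120 h (0.353%) and 144 h (0.683%), and drought replicate 2 was low at 120 h (0.295%). Drought replicate 3 stayed between 99.6% and 123%. Low libraries therefore stood on either side of the start of heat, in both chambers and before any stress. After 0 h, the rule having used that time, low libraries numbered 7 of 15 combined, 3 of 15 drought and 0 of 15 control libraries. This share was not tested between treatments, and equal replicate numbers may not be independent plants.

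A further 4 libraries lay between the low ones and the rest. Replicate 1 of drought at 168 h stood at 31.9% and replicate 2 of drought at 96 h at 59.2%, while replicate 1 of the combined plants stood at 33.0% at 72 h and 69.6% at 0 h. In these the members sat lower together rather than splitting into present and absent genes. The lower and upper quartiles of the members were 22.6% and 37.6% of their level in the 7 libraries in drought 168 h replicate 1, and 26.8% and 40.1% in combined 72 h replicate 1. In drought 96 h replicate 2 they were 47.4% and 74.0%, and in combined 0 h replicate 1, 1 of the 7 libraries of the rule, they were 58.3% and 83.7%. At most 2 members were at or below 0.2 CPM in any of the 4.

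Control leaves kept the set throughout. In order of the 6 times from 0 to 168 h, the control level was 101% ± 9.64, 80.1% ± 6.98, 101% ± 3.16, 90.8% ± 5.35, 103% ± 26.7 and 105% ± 6.996 (SD, n = 3 libraries each). The lowest control library, replicate 3 at 72 h, stood at 74.9%.

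**Figure D2:**
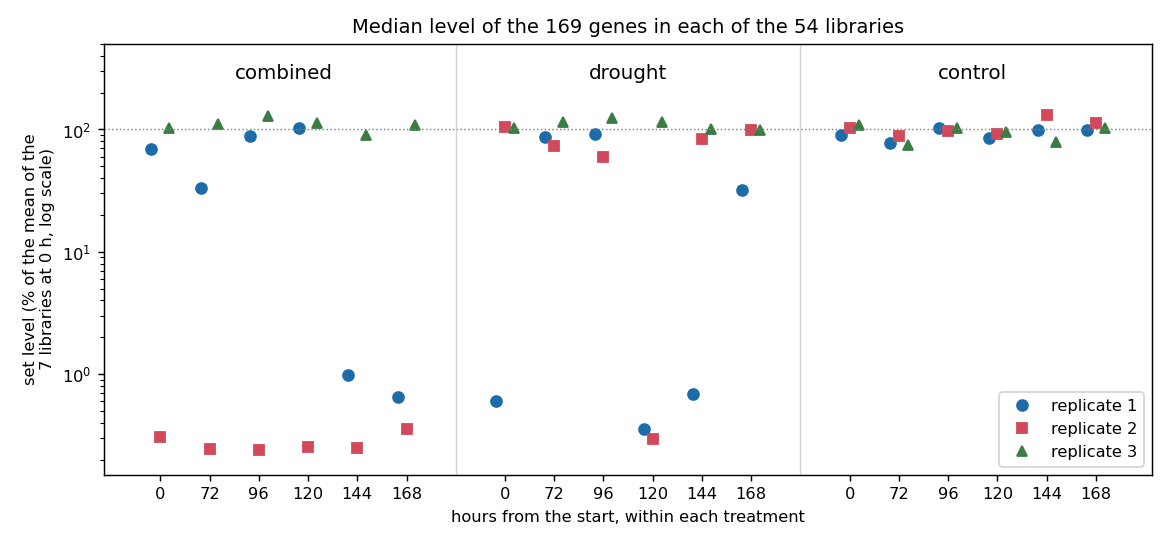
Level of the 169 genes (median of CPM over the mean in the 7 libraries, in percent, log axis) in each of the 54 libraries by hours from the start, for combined, drought and control plants from left to right, with a marker for each replicate number. Combined replicate 2 lies at 0.241% to 0.353% at all 6 times, 4 drought libraries lie between 0.295% and 0.683%, and all 18 control libraries lie at 74.9% or above.

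Single members followed this pattern closely in the later libraries. In the 10 low libraries after 0 h, 1540 of the 1690 gene-by-library values (91.1%) were at or below 0.2 CPM, and the highest value of any member was 1.42 CPM. There were 101 members at or below 0.2 CPM in all 10, where 0.473% of the 21987 genes were (104 genes, only 3 of them outside the set). For 167 of the 169 members the highest of the 10 low libraries was under the lowest of the other 35 later libraries, against 1.79% of the 21987 genes and 227 of the 21818 genes outside the set. These 10 and 35 libraries were told apart by the level of the members themselves, so the counts describe how uniformly the members moved and test nothing. The 2 members whose values overlapped, named for that reason after their values were seen, were Pavir.3KG181800.v4.1 and Pavir.1KG384100.v4.1. Over all 54 libraries, 98 members were at or below 0.2 CPM in exactly 12. There were 3 members at or below 0.2 CPM in fewer than 5 of the 10 later low libraries, Pavir.2NG158600.v4.1, Pavir.5NG247300.v4.1 and Pavir.1NG139500.v4.1, singled out after their values were seen. Even there Pavir.2NG158600.v4.1 reached no more than 1.04 CPM.

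The 2 most abundant members illustrate the later libraries. Pavir.6KG119800.v4.1 had 0.0227 to 0.951 CPM in the 12 low libraries, and Pavir.3KG106100.v4.1 had 0.0650 to 0.598 CPM. In the lowest of the other 35 later libraries they had 4.59 CPM (combined 72 h replicate 1) and 7.76 CPM (drought 168 h replicate 1), and these libraries are the 2 lowest of the intermediate ones.

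**Figure D3:**
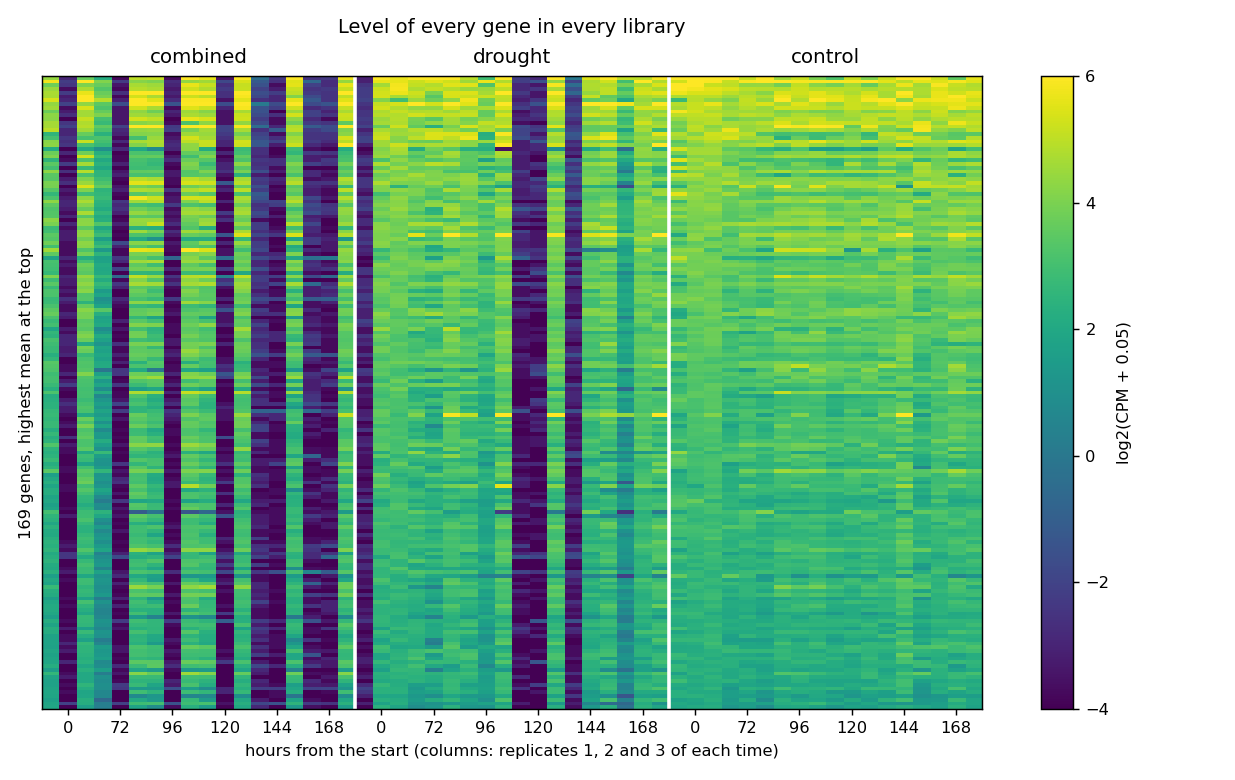
Level of each member as log2(CPM + 0.05) (colour), with a row for each of the 169 genes, highest mean at the top, and a column for each of the 54 libraries, grouped by treatment and time with replicates 1 to 3 in order. The 12 low libraries show as columns in which nearly every row is at the bottom of the scale, and intermediate libraries show as columns shifted as a whole.

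The 169 members were a strictly defined core of a wider pattern. Across the 45 libraries after 0 h, the log2 CPM of a member correlated with the log2 level of the set at a Pearson r of 0.719 to 0.995, with a median of 0.974, and r was over 0.9 for 161 of the 169. The level is made from the members and 10 of the libraries share its low values, so r is a description only. Among 30985 other genes with a mean of at least 1 CPM, r was over 0.9 for 391. At the equal limits of 0.8 and -0.8, r was over 0.8 for 781 and below -0.8 for 224. Of these 391 genes, 212 were left out of the set because at least 1 of the 7 libraries was under 3 CPM, and 179 because a low library was over 0.2 CPM. Their ratio of the 2 low libraries to the 7 at 0 h had a median of 0.0243 and ran up to 0.499.

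The members were spread over the genome. They lay on all 18 chromosomes named in the identifiers, with 145 members there, and the other 24 had J identifiers, which belong to sequence placed on no chromosome. The K chromosomes held 74 members, 0.684% of their 10819 genes with at least 3 CPM in each of the 7 libraries, and the N chromosomes held 71, 0.679% of 10460. Single chromosomes ranged from 9N, with 9 members of 2212 genes (0.407%), to 8K, with 8 of 590 (1.36%). The J identifiers stood apart, with 24 members of 708 genes (3.39%), against 0.681% on the chromosomes. J genes were 14.2% of the members and 3.22% of the 21987 genes.

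**Figure D4:**
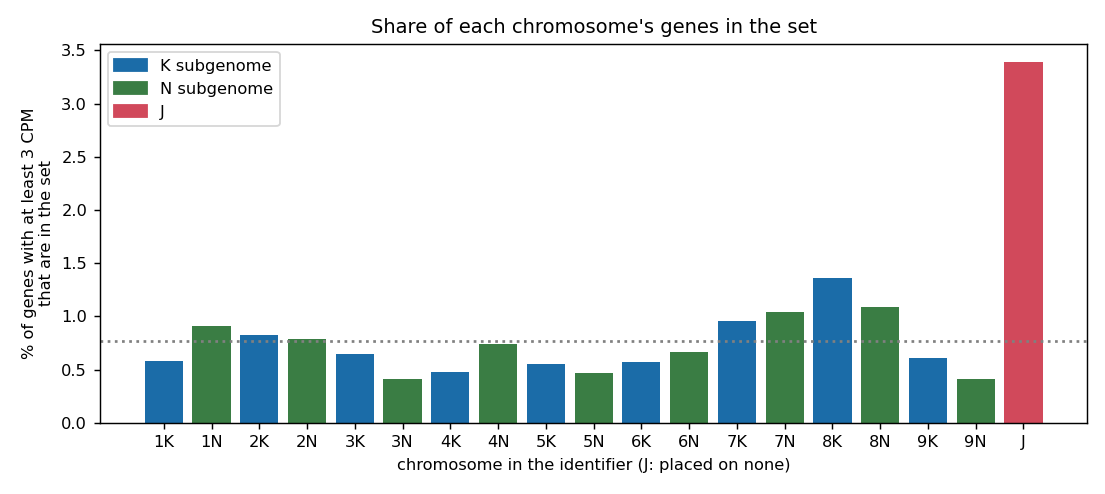
Share of the genes with at least 3 CPM in each of the 7 libraries that are members, in percent, for each chromosome named in the identifiers and for J, with a dotted line at the share over all genes (0.769%). Chromosome shares lie between 0.407% and 1.36%, while J reaches 3.39%.

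Members were mostly isolated, with a few close neighbours. Among the genes with at least 3 CPM in each of the 7 libraries, in the order of their identifiers, 129 members on the chromosomes stood alone, and 16 stood in runs, 5 runs of 2 and 2 runs of 3. The gene after a member was itself a member in 9 of 145 cases (6.21%), while members made up 0.681% of these genes. When all genes of the table were taken as the order, the next gene was a member in 6 cases (4.14%), where members made up 0.472% of the genes, and no run was longer than 2. Successive members of a chromosome lay a median of 76 genes apart and at most 552.

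The longest runs were on 2K and 8N. On 2K, Pavir.2KG322700.v4.1, Pavir.2KG323600.v4.1 and Pavir.2KG324000.v4.1 averaged 4.84, 7.41 and 8.64 CPM in the 7 libraries and had at most 0.0325, 0 and 0.0975 CPM in the 2 low ones. On 8N, Pavir.8NG281500.v4.1, Pavir.8NG281600.v4.1 and Pavir.8NG282000.v4.1 averaged 47.3, 31.8 and 12.2 CPM, with at most 0.139, 0.130 and 0.163 CPM in the 2 low libraries. The first 2 of these were among the more abundant members. Whether neighbours of a run are copies of each other was not tested.

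The response of the set to drought and heat depended on which libraries were counted. The comparisons were made with edgeR's quasi-likelihood test, and a call means a Benjamini-Hochberg adjusted p under 0.05 over all genes tested. All 169 members passed its filter on low counts. The model of all 54 libraries takes its spread from all 18 groups, including drought and combined plants at 0 h. There the rule chose members low in 1 library and high in the others, so values used by the rule enter that spread. Over all 54 libraries, drought was compared with control at 72 to 168 h (15 libraries each), and 1 member was called, lower under drought, where 25.2% of all genes were called. The median log2 fold change of the members was -0.64, against 0.01 over all genes. Combined stress against drought at 96 to 168 h (12 libraries each) also called 1 member, lower under combined stress, where 29.9% of all genes were called, with a member median of -0.45 and -0.02 over all genes. This direction rested on a library of drought at 120 h, the time at which replicate 3 alone had the set. Without drought 120 h replicate 3, 0 members were called lower and 1 higher (Pavir.5NG552700.v4.1), and the member median was 1.14, while without combined 168 h replicate 3 it was -1.98. The median for drought against control was -1.96 without drought 120 h replicate 3. Combined stress against control at the same times called 20 members, all lower, where 44.4% of all genes were called and 20.1% were called lower. The member median was -1.24, against 0.02 over all genes, and -2.75 without combined 168 h replicate 3. With only the groups compared in the model, 11, 0 and 22 members were called in the 3 comparisons, where 25.4%, 26.9% and 45.5% of all genes were.

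These values mix the low libraries with the others. Of the libraries compared, 6 combined, 3 drought and 0 control libraries at 96 to 168 h were low. The single member called under drought was Pavir.1KG384100.v4.1 on 1K, with a log2 fold change of -2.59 ± 0.81 (SE) and an adjusted p of 0.018 in edgeR, and adjusted p = 0.16 with an estimated correlation. After 0 h it had 0.0864 to 0.179 CPM in the 3 low drought libraries, and 3.20 to 16.6 CPM (median 5.01) in the 9 drought libraries at 75% or more of the set level. Control libraries at that level had 2.15 to 57.3 CPM (median 29.1, n = 14). In the 36 libraries at that level its log2 fold change was -2.11 ± 0.48, with an edgeR adjusted p of 0.0068, and adjusted p = 0.12 with an estimated correlation. The single member called in combined stress against drought was Pavir.J015500.v4.1, described below.

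To show the stress response where the set was present, the model was refitted to the 36 libraries in which the set stood at 75% or more of its level in the 7. This holds 9 drought and 14 control libraries at 72 to 168 h, and 6 combined, 7 drought and 12 control libraries at 96 to 168 h. Drought at 120 h and combined plants at 0, 72, 144 and 168 h then have a lone library each, whose spread is taken from the remaining groups. Because the libraries were kept by the level of the members, median differences of the set are held near 0 by construction, and only differences between members are of interest. The spread in this model is also that of libraries kept by this level, among them libraries at 0 h that the rule used. Adjusted p and counts of called members in this model are therefore descriptive.

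In these 36 libraries the members were no longer uniformly low. Drought against control called 38 members (22.5%), 10 higher and 28 lower, where 21.9% of all genes were called, 11.2% higher and 10.7% lower. Combined stress against drought called 33, 14 higher and 19 lower, where 14.8% of all genes were called, 7.9% higher and 6.88% lower. Combined stress against control called 49, 13 higher and 36 lower, where 29.7% of all genes were called, 15.7% higher and 14% lower. The shares of members called in either direction were thus near those of all genes in the drought and combined comparisons with control. In both, however, a larger share of members than of all genes was called lower, and a smaller share higher. The member medians were -0.09, -0.06 and -0.17 on the log2 scale in these 3 comparisons, against 0.01, -0.00 and 0.00 over all genes. At 2-fold or more, drought against control called 3 members higher and 4 lower, where 3.27% and 3.56% of all genes were called so. Combined stress against drought called 4 higher and 8 lower, where the shares were 3.45% and 2.39%, and combined stress against control called 1 higher and 18 lower, where they were 5.03% and 4.84%. Over the 3 comparisons, which share libraries, 76 members were called at least once and 93 in none, where 44.1% of all genes were called at least once. All 20 members called lower in combined stress against control over the 54 libraries were also called lower here by edgeR. The 36 libraries are part of the 54, so this is no independent check. With an estimated correlation in the 36 libraries, Pavir.1KG384100.v4.1, Pavir.6KG343000.v4.1 and Pavir.8KG317500.v4.1 of these were not called. Leaving out the 12 low libraries only (42 libraries) gave 30, 15 and 29 called members in the same order of comparisons, where 18.3%, 13.5% and 27.3% of all genes were called, and a level of 72% or more (38 libraries) gave 44, 31 and 50, where 22.7%, 14.7% and 29.4% were. When limma estimated a correlation (0.124) within each treatment and replicate number, 2, 20 and 39 members were called, where 1.19%, 8.95% and 21.6% of all genes were.

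**Figure D5:**
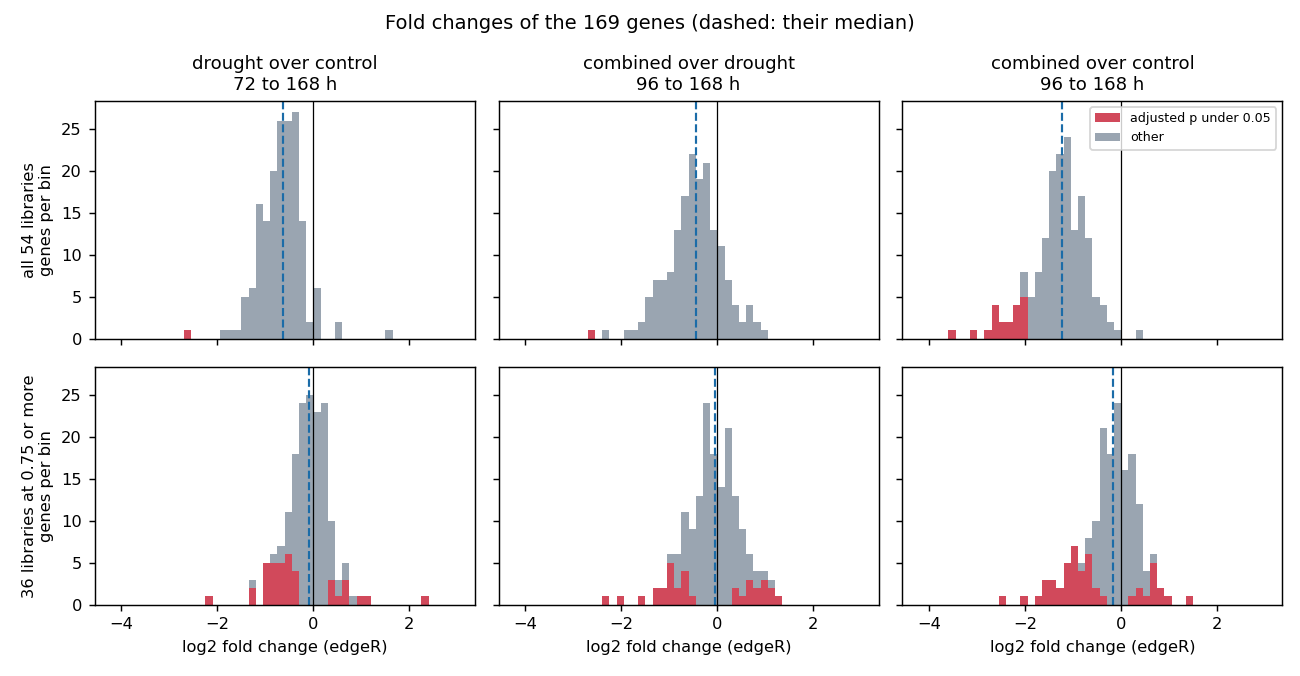
Number of members by log2 fold change in edgeR for drought over control, combined over drought and combined over control, with all 54 libraries in the upper panels and the 36 libraries at 75% or more of the set level in the lower ones, called members in their own colour and the median dashed. The median lies at -0.64, -0.45 and -1.24 above and at -0.09, -0.06 and -0.17 below, where called members stand on both sides of 0.

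Under drought in these 36 libraries, the 2 members called higher with the smallest p were Pavir.1NG497300.v4.1 on 1N and Pavir.2KG555400.v4.1 on 2K. Pavir.1NG497300.v4.1 had 12.3 to 149 CPM (median 32.9, n = 9) in drought libraries and 2.51 to 65.3 CPM (median 8.52, n = 14) in controls. Its log2 fold change was 2.27 ± 0.42 (SE), with an edgeR adjusted p of 0.0022, and adjusted p = 0.054 with an estimated correlation. Most of the high values were in drought replicate 3, with 59.5, 149, 123, 27.2 and 108 CPM from 72 to 168 h. The other drought libraries kept had 12.3 to 32.9 CPM, all within the range of the controls. The groups overlapped, but the lowest of the 9 drought libraries kept was above the control median. That holds only for libraries kept by the level of the set. Of the dropped drought libraries that were not low, 72 h replicate 2 held 3.33 CPM, under that median. Also under it was 96 h replicate 2, with 3.08 CPM, whereas 168 h replicate 1 stood above it, with 21.6 CPM. Pavir.2KG555400.v4.1 had 16.8 to 60.3 CPM (median 42.7) in drought and 6.24 to 34.7 CPM (median 11.9) in control libraries (log2 1.04 ± 0.20, edgeR adjusted p = 0.0024, and adjusted p = 0.051 with an estimated correlation).

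Among members called lower under drought, Pavir.1KG383900.v4.1 and Pavir.3KG106100.v4.1 had the smallest p. Pavir.1KG383900.v4.1 is the neighbour of Pavir.1KG384100.v4.1 in a run of 2 on 1K. It had 1.41 to 7.66 CPM (median 5.95, n = 9) in drought and 5.55 to 10.9 CPM (median 7.74, n = 14) in control libraries (log2 -0.80 ± 0.14, edgeR adjusted p = 0.0015). In Pavir.3KG106100.v4.1, drought libraries had 20.1 to 67.8 CPM (median 27.9) and controls 31.2 to 64.6 CPM (median 58.2). Its log2 fold change was -0.92 ± 0.18, with an edgeR adjusted p of 0.0030, although the highest value of all was in a drought library.

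Combined stress was set against drought alone at 96 to 168 h to ask what differs when heat is added. The chamber goes with the heat in this comparison. Pavir.5NG552700.v4.1 on 5N had 4.90 to 8.47 CPM (median 6.51, n = 6) in combined and 0.669 to 4.67 CPM (median 2.58, n = 7) in drought libraries, groups that did not overlap (log2 1.34 ± 0.24, edgeR adjusted p = 0.0022). Pavir.8KG118800.v4.1 on 8K had 22.6 to 40.4 CPM (median 32.5) in combined and 8.69 to 19.1 CPM (median 16.1) in drought libraries, again without overlap (log2 1.00 ± 0.19, edgeR adjusted p = 0.0026). Pavir.9KG286300.v4.1 on 9K was lower in combined libraries, with 6.03 to 12.4 CPM (median 8.25) against 11.7 to 28.1 CPM (median 17.9) in drought libraries, which overlapped slightly (log2 -1.23 ± 0.23, edgeR adjusted p = 0.0024). Its neighbour in the table, also a member, was called lower too, with a log2 fold change of -0.72 ± 0.22 and an edgeR adjusted p of 0.034, but adjusted p = 0.085 with an estimated correlation, and its call was lost without any of 6 of the 10 libraries that were left out.

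Combined 72 h replicate 3 was taken before the heat and is the only combined library of that time in which the set was at 75% or more, so its values have no replicate. There Pavir.8KG118800.v4.1 had 56.7 CPM, above all 6 combined libraries of the comparison, against 11.8 and 13.4 CPM in drought 72 h replicates 1 and 3. In the same library Pavir.5NG552700.v4.1 had 7.47 CPM, against 2.27 and 2.63 CPM in those drought libraries. Pavir.9KG286300.v4.1 had 8.84 CPM there, against 12.3 and 25.5 CPM. In this single library the 3 members lay on the same side of these drought libraries as in the comparison. In combined 72 h replicate 1, where the whole set stood at 33.0%, Pavir.8KG118800.v4.1 had 6.73 CPM, Pavir.5NG552700.v4.1 1.15 CPM and Pavir.9KG286300.v4.1 4.71 CPM. Whether combined and drought plants differed in these members before heat was not tested.

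Pavir.J015500.v4.1, on sequence placed on no chromosome, had the largest fall in this comparison among the members named. It had 2.11 to 6.56 CPM (median 4.103, n = 6) in combined libraries, 10.7 to 24.3 CPM (median 17.7, n = 7) in drought libraries and 9.60 to 27.0 CPM (median 15.98, n = 12) in control libraries. The combined libraries overlapped with neither of the other groups. The log2 fold change was -2.31 ± 0.33 against drought (edgeR adjusted p = 6.3e-04) and -2.48 ± 0.32 against control (edgeR adjusted p = 4.5e-05). In all 54 libraries these were -2.68 ± 0.83 and -3.51 ± 0.86, with edgeR adjusted p of 0.013 and 0.0011. The call against drought in all 54 libraries was lost in other fits, with adjusted p = 0.21 with an estimated correlation and adjusted p = 0.058 in edgeR with only the groups compared, and without drought 120 h replicate 3 the log2 fold change was -1.15 with an edgeR adjusted p of 0.42. In combined replicate 3, the combined series in which the set was present at every time, Pavir.J015500.v4.1 had 14.2 CPM at 0 h and 4.28 CPM at 72 h, before heat. The value at 72 h is from a single library. At 72 h the drought libraries had 6.77, 7.56 and 15.1 CPM, and the control libraries 12.2, 16.0 and 7.46 CPM. The chamber of the combined plants and the added heat cannot be told apart in these values.

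Combined stress was also set against control at 96 to 168 h. Pavir.2NG495500.v4.1 on 2N had 18.02 to 29.7 CPM (median 21.9, n = 6) in combined and 5.79 to 15.2 CPM (median 9.65, n = 12) in control libraries (log2 0.98 ± 0.18, edgeR adjusted p = 6.0e-04). Pavir.2KG083900.v4.1 on 2K had 15.5 to 26.4 CPM (median 20.6) in combined and 8.98 to 17.1 CPM (median 10.97) in control libraries (log2 0.60 ± 0.12, edgeR adjusted p = 0.0011). Over all 54 libraries both fold changes were below 0, at -0.10 ± 0.90 and -0.48 ± 0.90, and neither was called. Pavir.2NG011900.v4.1 on 2N had 4.18 to 13.03 CPM (median 9.32) in combined and 10.2 to 19.0 CPM (median 15.1) in control libraries (log2 -1.15 ± 0.14, edgeR adjusted p = 3.1e-05), and was called lower over all 54 libraries as well, though not without any single one of the 6 low combined libraries (edgeR adjusted p up to 0.058). In combined 72 h replicate 3, a single library before heat, Pavir.2NG495500.v4.1 had 18.002 CPM, against 7.47, 10.1 and 10.7 CPM in control libraries at 72 h. Pavir.2KG083900.v4.1 had 23.0 CPM there, against 12.8, 10.1 and 7.53 CPM. Pavir.2NG011900.v4.1 had 10.7 CPM, within the 10.1, 14.2 and 10.4 CPM of these controls.

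Neighbours in a run did not always respond alike, as shown by 2 pairs chosen after their values were seen. In combined stress against control in the 36 libraries, Pavir.9KG286200.v4.1 and Pavir.9KG286300.v4.1 were both called lower, at log2 -1.08 ± 0.21 and -1.33 ± 0.21 (edgeR adjusted p = 8.5e-04 and 2.2e-04). Of the pair on 2N, Pavir.2NG109200.v4.1 was called higher, at log2 0.44 ± 0.12, while Pavir.2NG110200.v4.1 was called lower, at log2 -1.49 ± 0.35 (edgeR adjusted p = 0.0074 and 0.0033). Of the 8N run, 0 of 3 members were called by edgeR in any of the 3 comparisons.

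Untreated leaves were also compared over time. In control leaves at 168 h against 72 h, 0 members were called by edgeR, where 0% of all genes were called, and 0 had an unadjusted p under 0.05. With an unadjusted p under 0.05 there were 7, 19 and 30 members in the fits of 42, 36 and 38 libraries and 32 with only the groups compared, of which 0 passed the adjustment. DESeq2 called 0 members, where it called 0.434% of all genes (139), and limma called 0. Their median log2 fold change was 0.20, against 0.03 over all genes. Over the 15 control libraries at 72 to 168 h, the coefficient of variation of a member had a median of 0.285, against 0.246 over the other genes with at least 3 CPM in each of the 7 libraries.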

How the data were processed

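The authors deposited unnormalized gene counts, as whole numbers, for 54 libraries. The tools named, per the submitters' processing notes, are TopHat, Cufflinks and HTSeq. Their versions, the build, the annotation and the strand setting were not stated in any source used. Of the 32190 identifiers, 0 matched the 74976 genes of the RefSeq table for P.virgatum_v5, so no gene names or sequences are given, and chromosomes are those coded in the identifiers. CPM used the column total. Groups came from sample titles. Titles of combined libraries reading 94 h were taken as 96 h, as in the series design, and 1 week as 168 h. The 1 week titles of combined libraries give no hours of heat.

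The main test was edgeR 4.0.16 under R 4.3.3 (default filterByExpr, minimum count 10 and total 15, trimmed mean of M values, a mean for each of the 18 groups, glmQLFit and glmQLFTest). Contrasts averaged the times, and SE is the size of the log2 fold change divided by the square root of F. The script was tested on simulated data. The chi-square per gene between replicates was 23.4 or more, so no library was a copy of another of its group. Alternatives were DESeq2 1.42.0, limma 3.58.1 (voom, also with an estimated correlation), models of only the groups compared, the replicate number as a block, other limits of the rule, and leaving out libraries.

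The members, lists and tests were chosen with earlier results of these data known. Genes named were the 2 members of highest mean, those at the limits of the rule, the ends of the longest runs and, for each comparison in the 36 libraries, the 2 called members with the smallest p in each direction. All others, such as pairs of neighbours and members whose values overlapped, were chosen after their values were seen.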

Additional observations from a re-analysis of the deposited data

How the results depend on the processing

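The size of the set followed the limits of the rule: 357 genes met it at a lower limit of 1 CPM, of which 300 were kept, and 23 met it at 10 CPM. The share of members next to a member was 4.14% over all genes of the table, where members made up 0.472%. At limits of 1 and 3 CPM, 8 genes of the opposite pattern appeared. For drought against control, the number of members called was 30 without the 12 low libraries, 38 in the 36 libraries at 75% or more, 44 in the 38 at 72% or more (a limit added after seeing the data), 11 in a model of only the groups compared, 8 with limma, and 0 and 2 with limma and an estimated correlation in the 54 and in the 36 libraries. Of all genes, 25.4% were called with only the groups compared, 20.8% with limma, and 0.959% and 1.19% with the estimated correlation. For combined stress against drought it was 15, 33 and 31 in the 42, 36 and 38 libraries, 3 with DESeq2 (33.1% of all genes), 0 with only the groups compared (26.9%), 0 with limma (28.9%), and 0 and 20 with the estimated correlation (15.02% and 8.95%). For combined stress against control it was 49 and 50 in the 36 and 38 libraries, 165 with limma (44.6% of all genes), and 143 and 39 with the estimated correlation (30.2% and 21.6%). The cause of these differences between tools was not tested. With the replicate number as a block, 1, 3 and 75 members were called in the 3 comparisons, where 28.3%, 32.1% and 47.8% of all genes were. Replicate numbers were not taken as pairs in the main test. Deviations of equal-numbered libraries at a time correlated above 0.1 in 12 of 18 pairs between combined and drought (median 0.226). It was 5 of 18 between combined and control (median -0.097) and 4 of 18 between drought and control (median -0.036). A possible link of equal numbers between combined and drought was thus ignored there. Across times of a treatment, equal-numbered libraries also went together in stressed plants. There r was above 0.1 in 35 of 45 pairs in combined (median 0.538) and 34 of 45 in drought (median 0.348). In control it was 17 of 45 (median -0.018). The main edgeR test treats all libraries as independent.

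Leaving out each library in turn, 1 to 33 members were called for drought against control, 1 to 29 for combined stress against drought, 12 to 143 for combined stress against control and 0 for control at 168 h against 72 h. The highest counts came without combined 168 h replicate 3 (29 and 143), combined 144 h replicate 3 (20 and 129) and drought 120 h replicate 3 (33), each the library of its group in which the set was present. The direction turned in combined stress against drought without drought 120 h replicate 3, where 1 member was called higher and 0 lower, and the member median was 1.14. Drought against control called 2 without drought 168 h replicate 2. Combined stress against drought called 2 without combined 96 h replicate 3, drought 120 h replicate 1 or drought 144 h replicate 1. Combined stress against control called 12 without any of 6 low combined libraries (replicate 2 at 96, 120, 144 and 168 h, replicate 1 at 144 and 168 h). In the 36 libraries the ranges were 20 to 51, 21 to 38 and 38 to 53. The lowest there were 20 and 23 without drought replicate 3 at 168 or 144 h, and 21 without drought 96 h replicate 3 or combined 120 h replicate 1. The 4 lone libraries after 0 h were not left out, since their groups would be empty. Of the 12 calls named by rule in the 36 libraries, 0 were lost in these refits. Pavir.9KG286200.v4.1 lost its call against drought in 6 of 10, and over all 54 libraries Pavir.J015500.v4.1 lost its call against drought without drought 120 h replicate 3. Over all 54 libraries Pavir.2NG495500.v4.1 and Pavir.2KG083900.v4.1 reversed, at -0.10 and -0.48, and Pavir.2KG083900.v4.1 had an edgeR adjusted p of 0.066 without the 12 low libraries. Depth limits the low values, since 0.2 CPM is at most 12.3 reads.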
